A study of Mus musculus with 9 samples.

Results

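Cadherins and protocadherins, the genes described here, comprised every gene on the array whose annotated symbol begins with Cdh and a digit or with Pcdh, as read by a probe set annotated to 1 gene. There were 56 such genes, 21 cadherins and 35 protocadherins, of 18193 genes measured. Where a gene had several probe sets, the one brightest on average was used. Values are log2 expression summaries, so that a difference of 1 is a doubling. The 9 Affymetrix arrays held total RNA from 3 groups of cultured mouse neural cells, each with biological replicates A, B and C. The yNSCs were neural stem cells derived from primary cortical neurons that carried lentiviral rtTA and a doxycycline-inducible wild-type YAP gene, the transcriptional coactivator at the end of the Hippo pathway. Per the study's methods, yNSCs were then propagated as neurospheres without doxycycline. NSCs were native mouse neural stem cells without the YAP vector. Both were kept in DMEM/F12 with N2, heparin and the growth factors EGF and bFGF. Neurons were primary cortical cultures from late embryos or newborn pups, without the YAP vector, kept in Neurobasal with B27 and AraC, which kills dividing cells. These cultures are enriched in neurons and not pure, and medium differed together with cell type in every comparison with neurons, so that their parts cannot be told apart.

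Cadherins are calcium-dependent adhesion proteins of the cell surface. Classical cadherins bind mostly their own kind on the neighboring cell and are tied to actin through beta-catenin, p120-catenin and alpha-catenin. Type I cadherins such as N-cadherin hold the neuroepithelium together, and type II cadherins mark brain regions, nuclei and neuronal subtypes. Protocadherins have related extracellular repeats but do not bind catenins in the same way. Clustered protocadherins give single neurons different surface identities, and the non-clustered delta protocadherins act in axon growth, synapse formation and neuronal activity.

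Summed marker levels of neurons and neural stem cells followed the group labels. Yap1 was at 9.18, 9.17 and 9.20 in yNSCs, 9.87, 9.52 and 9.78 in NSCs, and 7.62, 7.10 and 7.14 in neurons, and the array cannot separate the vector's copy from the cell's own gene. The summed level of 8 neuron markers, as log2 of their mean linear value, was 5.50 to 5.60 in yNSCs, 5.64 to 5.68 in NSCs and 11.73 to 11.78 in neurons. That of 8 neural stem cell markers was 11.72 to 11.75 in yNSCs, 11.85 to 12.01 in NSCs and 11.01 to 11.09 in neurons. The neuron arrays also held microglia markers at a summed level of 9.25 to 9.74, against 4.81 to 4.83 in yNSCs and 3.74 to 3.80 in NSCs, and all 6 of these genes were lower in both stem cell groups. In bulk RNA, fewer cells of a type and less RNA per cell cannot be told apart. Array medians lay between 4.90 and 5.02. NSC replicate A had the lowest value of its group for 35 of the 56 genes. With 3 arrays a group the smallest two-sided exact permutation p is 0.1, so calls rest on limma fitted over all genes, with Benjamini-Hochberg adjusted p under 0.05.

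Of the 56 genes, 23 were lower and 9 higher in yNSCs than in neurons. This is 57.1% of them, against a background of 62.5% of all genes called, 27.9% lower and 34.6% higher. In NSCs against neurons, 29 were lower and 10 higher, 69.6% of them, where 67.4% of all genes were called, 34.1% lower and 33.3% higher. yNSCs and NSCs differed in 26 of the 56 genes, 13 higher and 13 lower in yNSCs (46.4%), with 39.3% of all genes called, 21.3% higher and 18% lower. The shares called were therefore near the background in each comparison, and the share lower than in neurons was above it in yNSCs (41.1%) and in NSCs (51.8%). The median difference of the 56 genes was -0.24 in yNSCs against neurons (-0.01 over all genes), -0.36 in NSCs against neurons (-0.07) and 0.07 in yNSCs against NSCs (0.07). Both comparisons with neurons share the neuron arrays, so their calls are not independent. Group means under the array's lower quartile (3.49 in yNSCs, 3.43 in NSCs and 3.71 in neurons, on average) were treated as near background. This held for 11 genes in yNSCs, 10 in NSCs, 12 in neurons and 6 in all 3 groups, and differences against such a level may be understated.

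**Figure D1:**
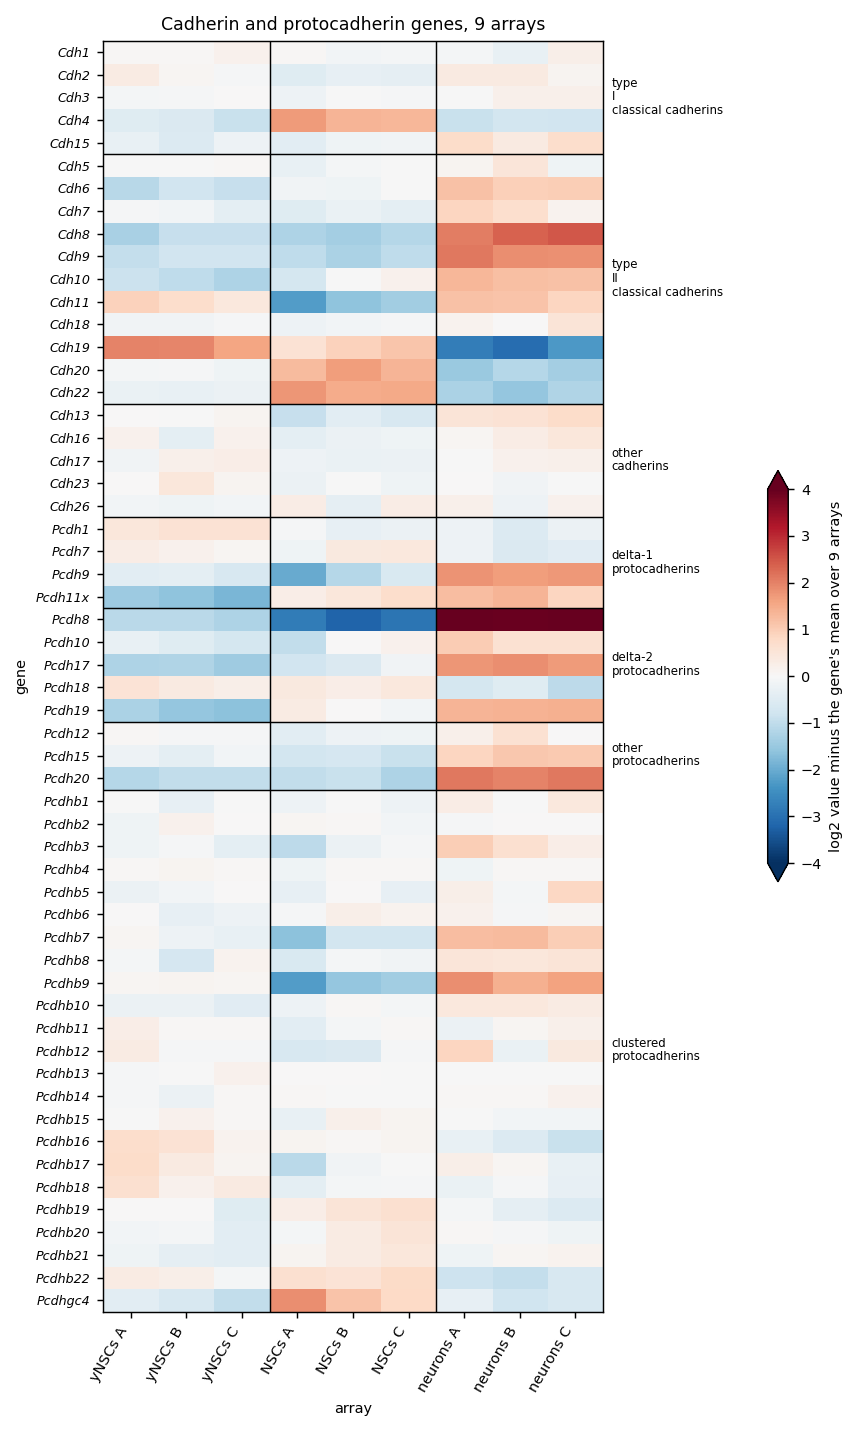
Heat map of the 56 genes (rows, by class) on the 9 arrays (columns: yNSCs, NSCs, neurons), colored by log2 value minus the gene's mean over the arrays. The largest contrast is Pcdh8, red in the 3 neuron arrays and blue in the 6 others, and Cdh19 shows the reverse.

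The stretch of DNA before the start of a gene is where promoter factors bind. Windows of 250 bases before the start were searched for 20 of the 56 genes, from the RefSeq table for GRCm38.p6. Genes on the chromosome of the clustered protocadherins were left out of the 20. Windows of that chromosome were kept among the 32851 searched in all. The sets are therefore not matched, and their shares below are not a like-for-like comparison. The 4 shown belong to genes with large differences below, Pcdh8, Cdh9 and Cdh10 (lower in yNSCs and NSCs than in neurons) and Cdh20 (higher). They are printed 5′ to 3′ in the direction of the gene and end at the base before its start. Capitals mark matches, on either strand, to GGAATG, the element of the TEAD factors that YAP binds, and to TTCAGCACC, the left part of the element of REST, a repressor of neuronal genes.
Pcdh8, chr14:79771313-79771562, minus strand: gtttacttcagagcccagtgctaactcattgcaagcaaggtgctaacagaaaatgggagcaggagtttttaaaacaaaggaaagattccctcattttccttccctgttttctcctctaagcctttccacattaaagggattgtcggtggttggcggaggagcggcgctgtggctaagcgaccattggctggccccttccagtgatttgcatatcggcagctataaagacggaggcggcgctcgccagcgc
Cdh9, chr15:16728665-16728914, plus strand: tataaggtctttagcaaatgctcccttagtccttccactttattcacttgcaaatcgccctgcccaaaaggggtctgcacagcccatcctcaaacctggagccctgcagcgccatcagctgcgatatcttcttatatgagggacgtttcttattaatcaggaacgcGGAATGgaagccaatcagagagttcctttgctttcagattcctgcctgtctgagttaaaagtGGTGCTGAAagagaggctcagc
Cdh20, chr1:104768270-104768519, plus strand: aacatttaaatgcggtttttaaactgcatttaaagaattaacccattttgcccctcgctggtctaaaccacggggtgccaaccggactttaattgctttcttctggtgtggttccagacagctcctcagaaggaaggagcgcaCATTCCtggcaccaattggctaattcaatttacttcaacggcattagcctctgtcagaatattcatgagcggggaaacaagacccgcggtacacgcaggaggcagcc
Cdh10, chr15:18820079-18820328, plus strand: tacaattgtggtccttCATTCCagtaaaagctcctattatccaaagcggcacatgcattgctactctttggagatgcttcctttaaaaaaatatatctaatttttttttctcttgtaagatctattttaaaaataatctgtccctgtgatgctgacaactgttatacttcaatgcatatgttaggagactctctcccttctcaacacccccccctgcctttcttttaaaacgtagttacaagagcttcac
GGAATG stood at 84 to 79 bases before the start of Cdh9, and its reverse complement, CATTCC, at 107 to 102 bases before Cdh20 and 234 to 229 bases before Cdh10. It was before 3 of the 20 genes, with any window of a gene counted, and in 12.6% of all windows. The REST letters, as their reverse complement GGTGCTGAA, stood at 22 to 14 bases before Cdh9, which was 1 of the 20 genes, against 0.301% of all windows. The window of Pcdh8 held neither set of letters. Of the 4 further motifs searched, on both strands, the E-box CAGGTG, bound by Snail and ZEB factors, was in the windows of Cdh7 and Pcdh15 (17.2% of all windows), and the E-box CACGTG in that of Cdh15 (6.02%). The AP-1 letters TGACTCA (4.46%) and the SOX letters ACAATG (10.7%) were before 0 of the 20 genes. The windows and motifs were chosen after expression values were known, and a match describes the letters and not a bound site.

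Among the 5 type I cadherins, N-cadherin and R-cadherin set NSCs apart from the other groups. Cdh2 (N-cadherin), which joins neuroepithelial cells and is present at synapses, had 11.05, 10.82 and 10.70 in yNSCs, 10.25, 10.41 and 10.37 in NSCs, and 11.08, 11.08 and 10.86 in neurons. The yNSC arrays overlapped those of neurons (difference -0.15, 95% interval -0.41 to 0.11, and -0.29 with an adjusted p of 0.0476 after a further quantile normalization), and every NSC array was below both other groups. The NSC level was 0.66 below neurons (SE 0.118, limma adjusted p = 0.00031), and yNSCs were 0.51 above NSCs (limma adjusted p = 0.00406). A second Cdh2 probe set was 0.32 higher in yNSCs than in neurons (adjusted p = 0.0443 over all probe sets). Cdh4 (R-cadherin), a close relative of Cdh2, had 8.50, 8.40 and 8.09 in yNSCs, 10.69, 10.34 and 10.32 in NSCs, and 8.10, 8.26 and 8.23 in neurons. NSCs were highest. They exceeded neurons by 2.25 (SE 0.136, 4.77-fold, limma adjusted p = 2.16e-08), and yNSCs were 2.12 lower than NSCs (adjusted p = 1.69e-07), with a difference from neurons of 0.13 (95% interval -0.17 to 0.43).

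Cdh15 (M-cadherin, known from muscle and cerebellar granule cells) had 4.23, 3.98 and 4.33 in yNSCs, 4.12, 4.36 and 4.38 in NSCs, and 5.27, 4.89 and 5.23 in neurons. All neuron arrays were above the rest, and Cdh15 was lower in yNSCs by 0.95 and in NSCs by 0.84 (limma adjusted p = 5.92e-05 and 0.000151). Cdh1 (E-cadherin, the epithelial cadherin) was near background in every group, with means of 2.51 in yNSCs, 2.38 in NSCs and 2.38 in neurons. Cdh3 (P-cadherin) averaged 4.23 in yNSCs, 4.17 in NSCs and 4.39 in neurons. Neither passed the test in any comparison on the probe set used. Cdh3 passed in NSCs against neurons without neuron replicate A (-0.30, adjusted p = 0.0264). Another Cdh3 probe set was lower than in neurons by 0.77 in yNSCs and by 0.92 in NSCs (adjusted p = 0.00311 and 0.000824 over all probe sets), as was the mean of both (-0.47 and -0.57, adjusted p = 0.00468 and 0.00115).

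**Figure D2:**
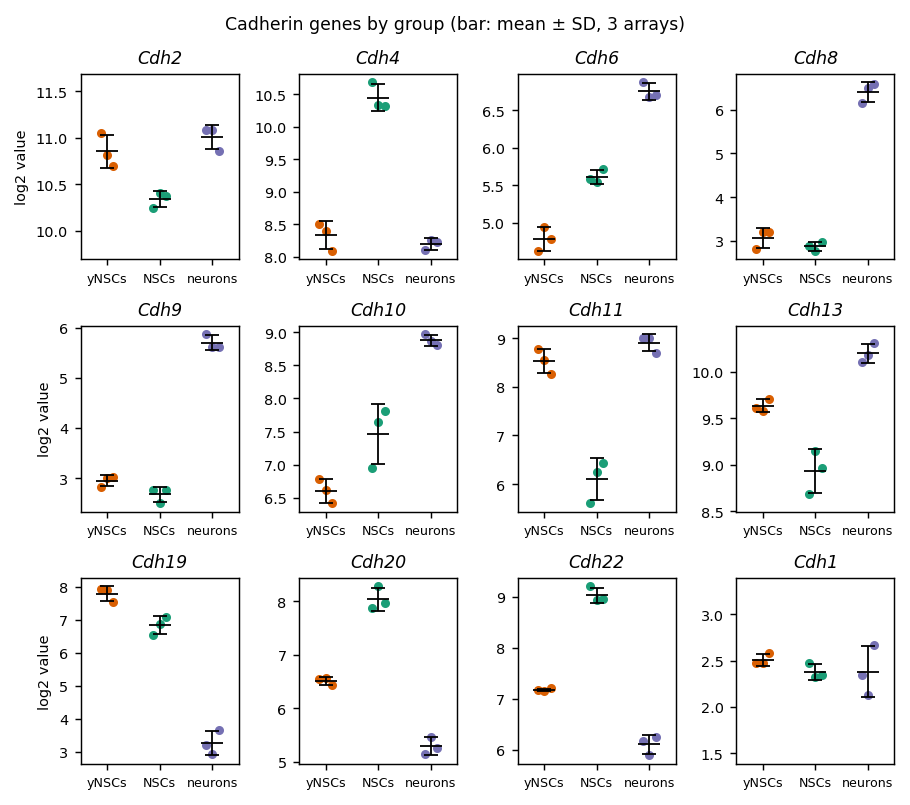
Log2 values of 12 cadherin genes in yNSCs, NSCs and neurons, 1 panel a gene; points are arrays and bars the mean ± SD of 3 arrays. Cdh8 and Cdh9 are highest in neurons, Cdh19, Cdh20 and Cdh22 are lowest in neurons, Cdh4 is highest in NSCs, and Cdh11 is lowest in NSCs.

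Type II cadherins included genes high in neurons and genes high in stem cells. Of 11 measured, 6 were lower and 3 higher in yNSCs than in neurons (27.9% and 34.6% of all genes), and 7 were lower and 3 higher in NSCs (34.1% and 33.3%). Cdh8, a cadherin of corticostriatal neurons, and Cdh9, which acts at mossy fiber synapses of the hippocampus, were near background outside neurons. Cdh8 had 2.81, 3.20 and 3.20 in yNSCs, 2.87, 2.77 and 2.98 in NSCs, and 6.16, 6.49 and 6.59 in neurons. It was lower by 3.34 in yNSCs (SE 0.143, 10.1-fold, limma adjusted p = 1.13e-09) and by 3.54 in NSCs (adjusted p = 6.19e-10). Cdh9, whose promoter window held both sets of letters above, had 2.83, 3.0 and 3.02 in yNSCs, 2.76, 2.5 and 2.77 in NSCs, and 5.87, 5.62 and 5.61 in neurons. The neuron arrays stood clear of the 6 others, and the differences were -2.75 in yNSCs and -3.02 in NSCs (limma adjusted p = 1.19e-09 and 4.61e-10).

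Cdh6 and Cdh10 also lay highest in neurons, with NSCs between neurons and yNSCs on the probe sets used. Cdh6, expressed in early cortical subdivisions, had 4.62, 4.94 and 4.78 in yNSCs, 5.58, 5.54 and 5.71 in NSCs, and 6.88, 6.68 and 6.70 in neurons. Cdh10, expressed by cortical neurons, had 6.78, 6.62 and 6.42 in yNSCs, 6.95, 7.64 and 7.81 in NSCs, and 8.97, 8.86 and 8.81 in neurons. For both genes no group overlapped another. Cdh6 was 1.97 below neurons in yNSCs and 1.14 below in NSCs, and 0.83 lower in yNSCs than in NSCs (limma adjusted p = 1.42e-08, 1.98e-06 and 9.18e-05). A second Cdh6 probe set was 0.83 and 1.08 below neurons, with yNSCs minus NSCs at 0.24 (adjusted p = 0.14 over all probe sets), and the mean of both gave -0.29 (adjusted p = 0.0233). The matching differences of Cdh10 were -2.27, -1.41 and -0.86 (limma adjusted p = 4.37e-07, 3.02e-05 and 0.00314).

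Cdh11 (OB-cadherin), a cadherin of mesenchyme that is also present in developing cortex, had 8.77, 8.55 and 8.27 in yNSCs, 5.61, 6.25 and 6.44 in NSCs, and 9.01, 9.00 and 8.70 in neurons. Every NSC array lay below both other groups. NSCs were 2.80 below neurons (6.98-fold, limma adjusted p = 9.83e-08), and yNSCs were 2.43 above NSCs (5.39-fold, limma adjusted p = 1.42e-06). In yNSCs against neurons the difference was -0.37 (95% interval -0.81 to 0.06, adjusted p = 0.126), which passed without NSC replicate A (adjusted p = 0.0396), and a second probe set of Cdh11 was 0.62 lower in yNSCs (adjusted p = 0.028 over all probe sets). Mural cell and fibroblast markers, 7 genes of mesenchymal cells, had a summed level of 7.97 to 8.20 in yNSCs, 6.38 to 6.93 in NSCs and 5.98 to 6.04 in neurons, of which yNSCs had 2 higher and 4 lower than neurons, and Acta2 was 4.83 higher. Astrocyte markers, 6 genes, had a summed level of 9.85 to 10.06 in yNSCs, 8.60 to 9.20 in NSCs and 10.06 to 10.14 in neurons, with 4 lower and 1 higher in NSCs than in neurons, and 4 higher and 0 lower in yNSCs than in NSCs. The part of either list in the values of Cdh11 and Cdh2 was not tested.

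Cdh19, Cdh20 and Cdh22 were higher in both stem cell groups. Cdh19, known from Schwann cell precursors in rat, had 7.93, 7.91 and 7.54 in yNSCs, 6.55, 6.87 and 7.08 in NSCs, and 3.20, 2.92 and 3.65 in neurons, where it was near background. It was higher by 4.54 in yNSCs (SE 0.192, 23.2-fold, limma adjusted p = 1.02e-09) and by 3.58 in NSCs (11.9-fold, adjusted p = 7.31e-09), and yNSCs exceeded NSCs by 0.96 (adjusted p = 0.00164). Cdh20, a cadherin of the developing neural tube, had 6.55, 6.57 and 6.43 in yNSCs, 7.88, 8.28 and 7.96 in NSCs, and 5.14, 5.47 and 5.25 in neurons. Cdh22 (PB-cadherin, known from pituitary and brain) had 7.17, 7.15 and 7.20 in yNSCs, 9.20, 8.93 and 8.95 in NSCs, and 6.18, 5.89 and 6.24 in neurons. In both genes yNSCs were at a level between neurons and NSCs, with no overlap. Cdh20 was higher than in neurons by 1.23 in yNSCs and by 2.75 in NSCs, and Cdh22 by 1.07 and by 2.92 (limma adjusted p at most 6.28e-06). yNSCs were 1.52 lower than NSCs for Cdh20 and 1.85 lower for Cdh22 (limma adjusted p = 1.75e-06 and 1.7e-07). Oligodendrocyte precursor markers, 5 genes of a glial type that can be present in neurospheres, had a summed level of 10.76 to 10.79 in yNSCs, 10.98 to 11.19 in NSCs and 9.76 to 9.80 in neurons, with 2 of the 5 higher (Olig1, Olig2) and 3 lower (Pdgfra, Cspg4 and Gpr17) in yNSCs than in neurons, and 3 higher and 2 lower in NSCs. Their part in the values of Cdh19, Cdh20 and Cdh22 was not tested.

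The remaining type II genes were low. Cdh7 and Cdh18 were near background in all 3 groups and were nonetheless called lower than in neurons in yNSCs (-0.73 and -0.33) and in NSCs (-0.94 and -0.34). The Cdh18 calls were lost without neuron replicate C, without yNSC replicates A or B in yNSCs against neurons, and without NSC replicates A or B in NSCs against neurons. Cdh5 (VE-cadherin, the cadherin of endothelium) averaged 3.70 in yNSCs, 3.56 in NSCs and 3.84 in neurons. It did not pass in any comparison, but was lower in NSCs than in neurons without neuron replicate C (-0.43, adjusted p = 0.0185) and when its probe sets were averaged (-0.30, adjusted p = 0.00815). Endothelial markers, 5 genes, had summed levels of 3.69 to 3.93 in yNSCs, 3.97 to 4.02 in NSCs and 3.88 to 4.10 in neurons, with 3 of the 5 near background in every group.

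Of the 5 other cadherins, Cdh13 stood out. Cdh13 (T-cadherin), which lacks a cytoplasmic tail and is held in the membrane by a lipid anchor, had 9.61, 9.58 and 9.71 in yNSCs, 8.68, 9.15 and 8.96 in NSCs, and 10.10, 10.18 and 10.31 in neurons. Each group was apart from the others, with NSCs lowest. Cdh13 was lower than in neurons by 0.56 in yNSCs and by 1.27 in NSCs, and higher in yNSCs than in NSCs by 0.70 (limma adjusted p = 0.00181, 2.04e-06 and 0.000731). The sizes depend on the probe set. Another Cdh13 probe set gave -0.41, -2.45 and 2.04 (adjusted p = 0.0538, 8.79e-08 and 1.69e-06 over all probe sets). A further one gave -0.33, -0.68 and 0.36 (adjusted p = 0.0469, 0.000568 and 0.0461). One of low signal, with a mean of 2.64 over the 9 arrays, passed in no comparison. Cdh16 (kidney cadherin) was 0.55 lower in NSCs than in neurons (limma adjusted p = 0.008), a call that ended after a further quantile normalization (-0.34, adjusted p = 0.0706). Cdh17 (liver-intestine cadherin) was near background in all groups, and its small differences in NSCs against neurons (-0.35) and in yNSCs against NSCs (0.34) were lost when any of several single arrays was left out (NSC replicates B or C and neuron replicates B or C in the first, and in the second yNSC replicates B or C, any NSC array, or neuron replicate B). Cdh23, a cadherin of hair cell tip links, and Cdh26 did not pass in any comparison, with values between 3.98 and 4.67 on all arrays. In yNSCs against NSCs, Cdh23 passed without yNSC replicate A (0.41, adjusted p = 0.0394) and Cdh26 without NSC replicate B (-0.44, adjusted p = 0.0293), and Cdh23 passed in yNSCs against neurons after a further quantile normalization (0.44, adjusted p = 0.00936).

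Among the 4 delta-1 protocadherins, Pcdh9 and Pcdh11x were lower in both stem cell groups and Pcdh7 was higher. Pcdh11x, an X-linked protocadherin of developing brain, had 5.61, 5.47 and 5.25 in yNSCs, 7.35, 7.53 and 7.79 in NSCs, and 8.32, 8.43 and 7.94 in neurons. It was lower in yNSCs than in neurons by 2.79 (6.9-fold, limma adjusted p = 1.2e-08) and than in NSCs by 2.11 (adjusted p = 5.54e-07), while NSCs were 0.67 below neurons (adjusted p = 0.0023). Pcdh9, expressed in cortical circuits, had 7.68, 7.73 and 7.47 in yNSCs, 6.08, 6.96 and 7.51 in NSCs, and 9.91, 9.77 and 9.84 in neurons. Neurons were highest, and the NSC arrays were spread over more than 2-fold. The differences from neurons were -2.21 in yNSCs and -2.99 in NSCs (limma adjusted p = 1.17e-05 and 7.14e-07). For yNSCs against NSCs the difference of 0.78 (adjusted p = 0.0351) came with overlapping arrays and fell to 0.39 without NSC replicate A (adjusted p = 0.0759). That call was also lost without NSC replicate B, any yNSC array or neuron replicate C (0.72 to 0.86, adjusted p = 0.0505 to 0.0995). Another Pcdh9 probe set was 0.85 lower in yNSCs than in NSCs, and a further one was 0.58 higher (adjusted p = 0.000215 and 0.00299 over all probe sets).

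Pcdh7 (NF-protocadherin in Xenopus, where it acts in axon growth) had 7.39, 7.27 and 7.17 in yNSCs, 6.91, 7.48 and 7.52 in NSCs, and 6.89, 6.51 and 6.62 in neurons. It was 0.60 higher in yNSCs and 0.63 higher in NSCs (limma adjusted p = 0.00644 and 0.00463). After a further quantile normalization these differences were 0.30 and 0.29 (adjusted p = 0.113 and 0.13). Another Pcdh7 probe set was 0.57 lower in NSCs than in neurons, with 0.02 in yNSCs (adjusted p = 0.00043 and 0.905 over all probe sets). A further one was higher than in neurons by 1.86 in yNSCs and by 1.47 in NSCs (adjusted p = 2.6e-06 and 1.85e-05 over all probe sets). Pcdh1 had 4.20, 4.32 and 4.34 in yNSCs, 3.69, 3.43 and 3.51 in NSCs, and 3.55, 3.21 and 3.51 in neurons. Pcdh1 was highest in yNSCs, by 0.86 over neurons and by 0.74 over NSCs (limma adjusted p = 4.15e-05 and 0.00033).

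Several delta-2 protocadherins bind the WAVE actin regulators through their tails. Of the 5 measured, 4 were lower than in neurons in yNSCs and in NSCs (27.9% and 34.1% of all genes). Pcdh8 (arcadlin in rat, where neuronal activity induces it and it controls N-cadherin at synapses) had 5.87, 5.87 and 5.69 in yNSCs, 4.14, 3.74 and 4.01 in NSCs, and 11.22, 10.89 and 11.01 in neurons. Its differences were the largest of the 56 genes in either comparison with neurons. Pcdh8 was lower by 5.23 in yNSCs (SE 0.13, 37.5-fold, limma adjusted p = 1.17e-11) and by 7.08 in NSCs (135-fold, adjusted p = 1.1e-12), and yNSCs exceeded NSCs by 1.85 (adjusted p = 3.46e-07). A second Pcdh8 probe set gave -5.18, -7.07 and 1.89.

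Pcdh17, which acts at corticobasal synapses and in axon extension, had 6.60, 6.63 and 6.39 in yNSCs, 7.07, 7.25 and 7.67 in NSCs, and 9.58, 9.70 and 9.54 in neurons. Pcdh19, the X-linked gene of a human epilepsy that affects mostly females, had 6.87, 6.58 and 6.47 in yNSCs, 8.45, 8.15 and 8.03 in NSCs, and 9.49, 9.53 and 9.55 in neurons. Both fell into the order yNSCs, NSCs, neurons without overlap. Pcdh17 was lower than in neurons by 3.07 in yNSCs and by 2.28 in NSCs, and Pcdh19 by 2.88 and by 1.31 (limma adjusted p at most 2.61e-06). yNSCs were 0.79 below NSCs for Pcdh17 and 1.57 below for Pcdh19 (limma adjusted p = 0.000915 and 1.88e-06).

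Pcdh10 (OL-protocadherin, needed for axon growth through the ventral forebrain) had 7.88, 7.70 and 7.47 in yNSCs, 7.20, 8.18 and 8.36 in NSCs, and 9.19, 8.80 and 8.80 in neurons. It was 1.25 lower in yNSCs and 1.02 lower in NSCs than in neurons (limma adjusted p = 0.000864 and 0.0034), and 4 further Pcdh10 probe sets were also lower in both. Another, of 6 in all, was 0.46 higher in NSCs. The yNSC arrays lay within the range of the NSC arrays (difference -0.23, adjusted p = 0.522), and without NSC replicate A the difference was -0.59 (adjusted p = 0.0133). A further Pcdh10 probe set was 0.60 lower in yNSCs than in NSCs (adjusted p = 0.00196 over all probe sets). The rest gave -0.33 to 0.49 and did not pass. Pcdh18, which binds the adaptor Dab1, was the delta-2 gene with the opposite direction. It had 7.04, 6.83 and 6.73 in yNSCs, 6.87, 6.76 and 6.89 in NSCs, and 5.78, 5.99 and 5.45 in neurons, and the yNSC arrays overlapped the NSC arrays. Pcdh18 was higher by 1.13 in yNSCs and by 1.10 in NSCs (limma adjusted p = 1.61e-05 and 1.87e-05), and yNSCs minus NSCs was 0.03 (95% interval -0.28 to 0.33). This depends on the probe set: another Pcdh18 probe set was 0.73 higher in yNSCs than in NSCs, with -0.22 in NSCs against neurons (adjusted p = 0.000235 and 0.109 over all probe sets), and the mean of the gene's probe sets was 0.35 higher in yNSCs than in NSCs (adjusted p = 0.0113).

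**Figure D3:**
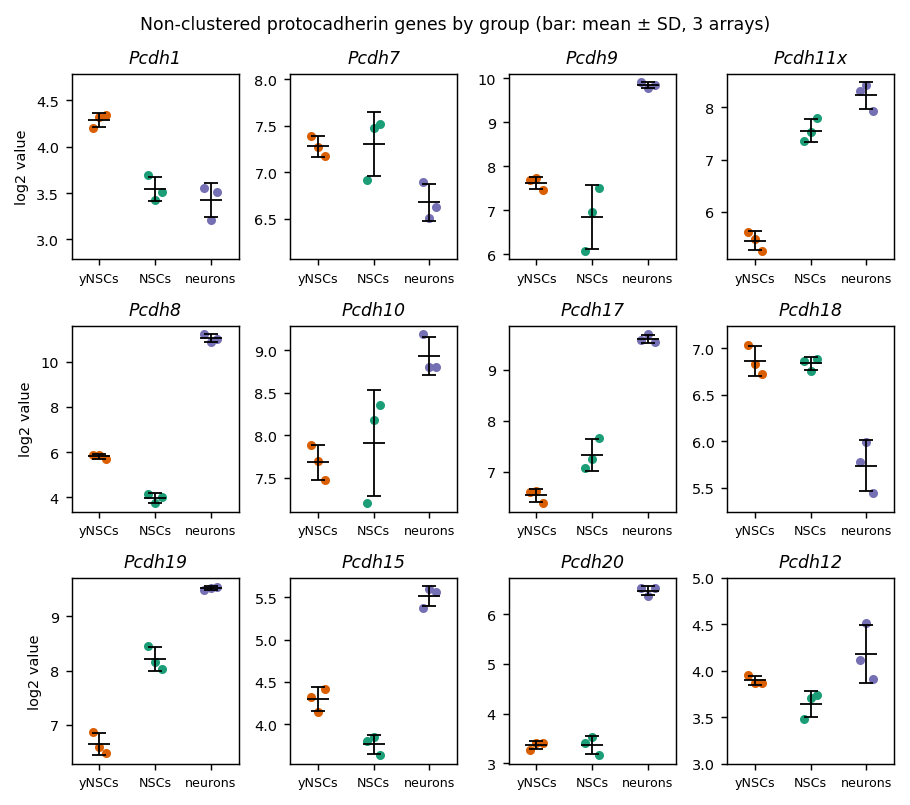
Log2 values of the 12 non-clustered protocadherin genes in yNSCs, NSCs and neurons, 1 panel a gene; points are arrays and bars the mean ± SD of 3 arrays. Pcdh8, Pcdh17, Pcdh19, Pcdh9, Pcdh10, Pcdh15 and Pcdh20 are highest in neurons, Pcdh11x is lowest in yNSCs, and Pcdh18 is lowest in neurons.

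Pcdh20 had 3.27, 3.40 and 3.41 in yNSCs, 3.40, 3.52 and 3.16 in NSCs, and 6.52, 6.37 and 6.52 in neurons. It was near background outside neurons and lower by 3.11 in each stem cell group (limma adjusted p = 2.9e-10 in yNSCs and 2.63e-10 in NSCs). Pcdh15, a partner of Cdh23 in the tip links of hair cells, had 4.32, 4.14 and 4.42 in yNSCs, 3.80, 3.85 and 3.63 in NSCs, and 5.38, 5.60 and 5.56 in neurons. It was lower than in neurons by 1.22 in yNSCs and by 1.75 in NSCs (limma adjusted p = 1.25e-06 and 4.09e-08). yNSCs exceeded NSCs by 0.53 (adjusted p = 0.00255), but another Pcdh15 probe set was 0.85 lower in yNSCs, so the direction between yNSCs and NSCs depends on the probe set. Pcdh12 (VE-cadherin-2, an endothelial protocadherin) was 0.54 lower in NSCs than in neurons (limma adjusted p = 0.00582), a call that ended after a further quantile normalization (-0.28, adjusted p = 0.117). In yNSCs it was 0.29 lower than in neurons (adjusted p = 0.107), which passed without neuron replicate C (-0.42, adjusted p = 0.0222) and as the mean of the gene's probe sets (-0.28, adjusted p = 0.014), and another probe set was 0.52 lower (adjusted p = 0.00149 over all probe sets).

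The clustered protocadherins were represented by 22 beta genes and Pcdhgc4, and the alpha probe sets were annotated to several genes each. Of the first 11, Pcdhb1 to Pcdhb11, 6 were lower and 0 higher in yNSCs than in neurons, and 7 were lower and 0 higher in NSCs. Of the last 11, Pcdhb12 to Pcdhb22, 1 was lower and 3 were higher in yNSCs, and 1 was lower and 3 were higher in NSCs. Of all genes, 27.9% were lower and 34.6% higher in yNSCs, and 34.1% and 33.3% in NSCs. The 23 clustered genes together were called less often than all genes (43.5% against 62.5% in yNSCs, 52.2% against 67.4% in NSCs). After a further quantile normalization Pcdhb4 in yNSCs (0.25, adjusted p = 0.0455) and Pcdhb2 in NSCs (0.29, adjusted p = 0.0385) were also called higher. So were Pcdhb13 and Pcdhb15 in both comparisons. Pcdhb20 was then called lower in yNSCs (-0.44, adjusted p = 0.02) and Pcdhb17 in NSCs (-0.71, adjusted p = 0.0245). The calls of Pcdhb1 in both comparisons and of Pcdhb5, Pcdhb10 and Pcdhb12 in NSCs ended. The split at Pcdhb11 was made after the values were seen and was not tested. With each array left out in turn, 5 lower calls among the first 11 and 3 higher calls among the last 11 held throughout in each comparison, while 5 other calls did not. Pcdhb1 lost its calls without NSC replicate C or neuron replicates A or C, without yNSC replicate B in yNSCs and without NSC replicate A in NSCs. Pcdhb21 lost its call in yNSCs without yNSC replicates B or C, NSC replicate B or neuron replicates B or C. In NSCs, Pcdhb12 lost its call without NSC replicates A or B or neuron replicates A or C, and Pcdhb5 without NSC replicates A or C or neuron replicate C. Beta genes are alike in sequence, and binding of a probe set to a neighboring gene's RNA was not tested.

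Pcdhb9 had 6.19, 6.23 and 6.17 in yNSCs, 3.88, 4.57 and 4.71 in NSCs, and 7.96, 7.54 and 7.71 in neurons. Pcdhb7 had 5.97, 5.66 and 5.59 in yNSCs, 4.25, 5.15 and 5.15 in NSCs, and 7.12, 7.15 and 6.86 in neurons. In both, NSCs were lowest and yNSCs between the other groups. Pcdhb9 was lower than in neurons by 1.54 in yNSCs and by 3.35 in NSCs, and 1.81 higher in yNSCs than in NSCs (limma adjusted p = 1.43e-05, 1.11e-08 and 1e-05). The differences of Pcdhb7 were -1.30, -2.19 and 0.89 (limma adjusted p = 0.000183, 1.81e-06 and 0.0056). Pcdhb3 (-0.84 in yNSCs, -1.07 in NSCs), Pcdhb8 (-0.69, -0.77) and Pcdhb10 (-0.71, -0.47) were the further genes lower in both groups without overlap with neurons.

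At the other end of the cluster, Pcdhb22 had 6.26, 6.17 and 5.84 in yNSCs, 6.57, 6.47 and 6.70 in NSCs, and 5.09, 4.96 and 5.29 in neurons. Pcdhb16 had 6.20, 6.07 and 5.62 in yNSCs, 5.61, 5.53 and 5.61 in NSCs, and 5.20, 4.95 and 4.58 in neurons. Neurons were lowest for both. Pcdhb22 was higher than in neurons by 0.98 in yNSCs and by 1.47 in NSCs (limma adjusted p = 3.83e-05 and 9.32e-07), and Pcdhb16 by 1.05 and by 0.67 (limma adjusted p = 0.000169 and 0.00422). Another Pcdhb16 probe set was 0.61 higher in yNSCs and 0.07 in NSCs (adjusted p = 0.00194 and 0.654 over all probe sets). Pcdhb18 was 0.60 higher in yNSCs only, and Pcdhb19 was 0.80 higher in NSCs only (limma adjusted p = 0.00278 and 0.00101), and yNSCs differed from NSCs in both (0.57 and -0.62, adjusted p = 0.00742 and 0.0101). The mean of Pcdhb18 was near background in NSCs (3.13) and in neurons (3.09), and was 3.69 in yNSCs. Pcdhb19, Pcdhb20, Pcdhb21 and Pcdhb22 were lower in yNSCs than in NSCs by 0.46 to 0.62, of which the Pcdhb20 call was lost without yNSC replicate C or NSC replicates B or C, and the Pcdhb22 call without yNSC replicate C. Pcdhb17, 0.81 higher in yNSCs than in NSCs, lost its call without yNSC replicates A or B or NSC replicate A (0.48 without the last).

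**Figure D4:**
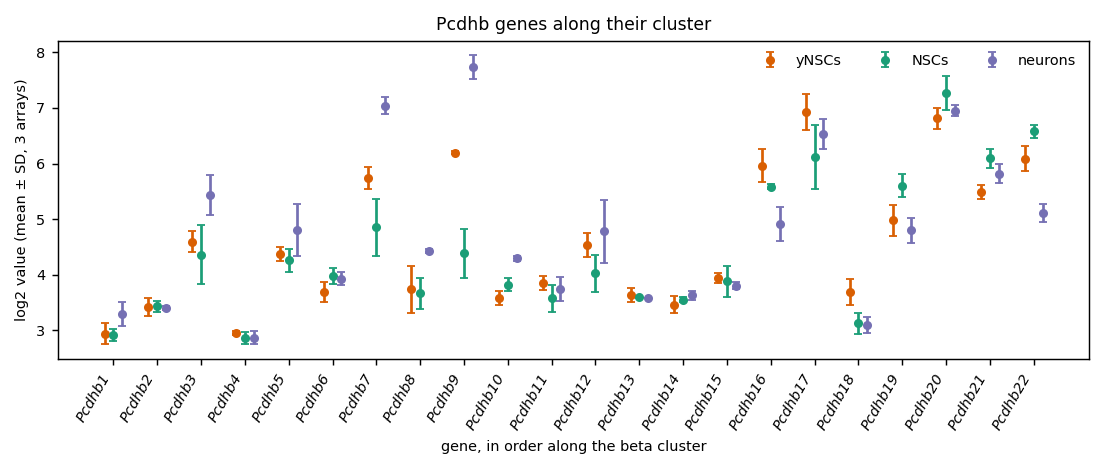
Log2 values (mean ± SD, 3 arrays) of the 22 Pcdhb genes in order along their cluster, for yNSCs, NSCs and neurons. Neurons lie above both stem cell groups at Pcdhb3, Pcdhb7, Pcdhb8, Pcdhb9 and Pcdhb10 and below them at Pcdhb16 and Pcdhb22.

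Pcdhgc4, a gamma C-type isoform that supports neuron survival, was high in NSCs only. It had 5.34, 5.12 and 4.77 in yNSCs, 7.63, 6.91 and 6.56 in NSCs, and 5.45, 4.98 and 5.14 in neurons. NSCs exceeded neurons by 1.84 (SE 0.241, 3.59-fold, limma adjusted p = 2.38e-05), and yNSCs were 1.96 below NSCs (3.88-fold, adjusted p = 3.93e-05) with a difference from neurons of -0.11 (95% interval -0.64 to 0.41).

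Between yNSCs and NSCs, the largest differences were therefore in genes met above. Cdh11, Pcdh8 and Pcdhb9 were higher in yNSCs by 1.81 to 2.43, and Cdh4, Pcdh11x, Pcdhgc4, Cdh22, Pcdh19 and Cdh20 were lower by 1.52 to 2.12. None of these 9 calls changed when any 1 array was left out. NSCs had the highest 3′ minus 5′ signal of the Actb control (0.56 to 0.70, against 0.19 to 0.31 in yNSCs and 0.03 to 0.21 in neurons), a measure that moves with RNA quality, and its part in these differences was not tested.

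**Figure D5:**
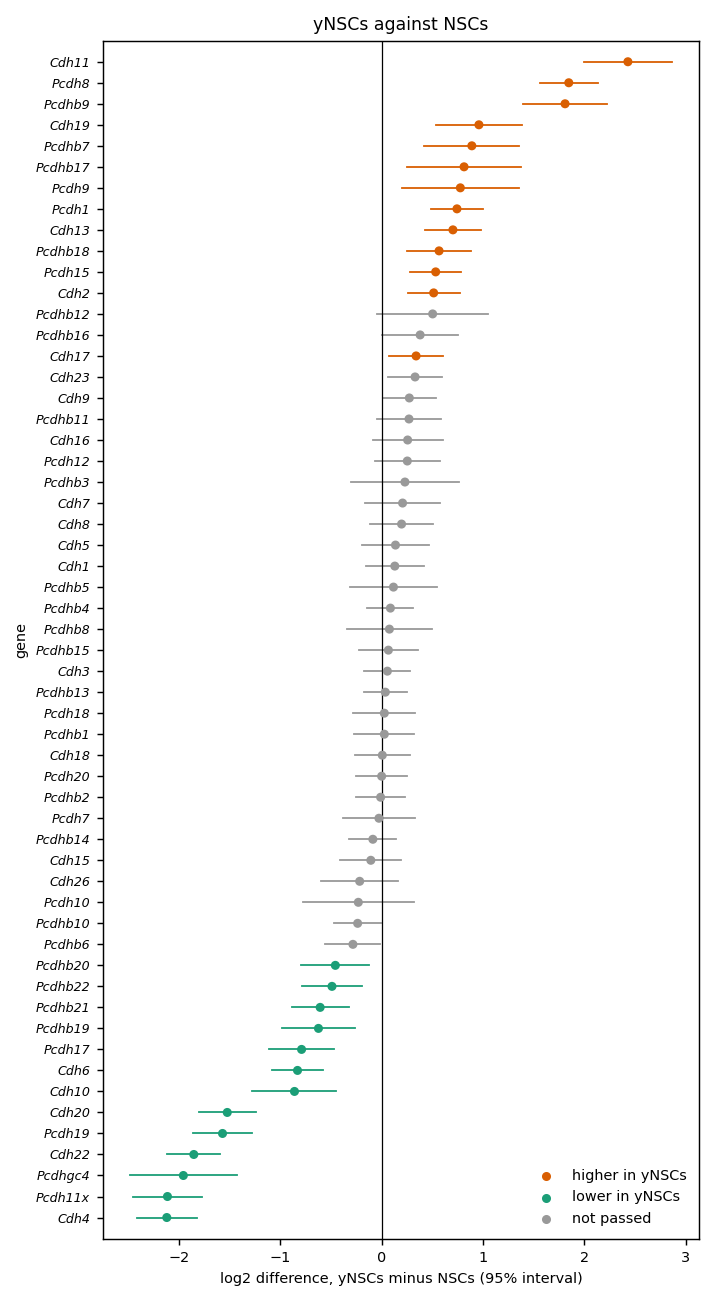
Log2 difference of yNSCs minus NSCs for the 56 genes, sorted, with 95% intervals from limma; color marks genes higher in yNSCs, lower in yNSCs and not passed. Cdh11 (2.43) is at the top and Cdh4 (-2.12) at the bottom.

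The partners of cadherins inside the cell changed gene by gene. Against neurons, 5 of 16 catenins and plakophilins were higher in yNSCs and 6 lower, and 6 were higher in NSCs and 4 lower (list medians -0.09 and -0.02, over all genes -0.01 and -0.07). Ctnnb1 (beta-catenin) was at 12.65 ± 0.02 in yNSCs, 12.61 ± 0.07 in NSCs and 12.74 ± 0.02 in neurons (SD, n = 3 each) and passed in no comparison. The alpha-catenins differed in direction. Ctnna1, the epithelial alpha-catenin, was higher by 1.39 in yNSCs and by 1.60 in NSCs, and Ctnna2, the neuronal one, was lower by 3.57 and by 3.81 (limma adjusted p at most 5.54e-07). Ctnnd1 (p120-catenin) was higher by 1.23 and by 1.38, and its neuronal relative Ctnnd2 was lower by 2.06 and by 0.67. Pkp2, a plakophilin of desmosomes, averaged 8.93 in yNSCs, 6.56 in NSCs and 4.15 in neurons, higher by 4.78 in yNSCs and by 2.41 in NSCs, and by 2.37 in yNSCs over NSCs (limma adjusted p at most 7.42e-07). Of 10 desmosomal cadherins and linkers, yNSCs had 2 higher and 2 lower than neurons and NSCs 0 higher and 3 lower, with Ppl (periplakin) 1.17 higher in yNSCs than in NSCs.

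Among 17 large and atypical members of the cadherin superfamily, 8 were lower and 2 higher in yNSCs than in neurons, 9 lower and 3 higher in NSCs, and 6 lower and 1 higher in yNSCs than in NSCs (medians -0.37, -0.33 and -0.03). The matching shares of all genes were 27.9% lower and 34.6% higher, 34.1% and 33.3%, and 18% and 21.3%. Fat4, a receptor linked to the Hippo pathway, averaged 4.25 ± 0.54 in yNSCs, 8.22 ± 0.11 in NSCs and 7.74 ± 0.07 in neurons (SD, n = 3 each). It was low in yNSCs only, by 3.49 against neurons and by 3.97 against NSCs (limma adjusted p = 1.89e-08 and 2.8e-08), and its ligand Dchs1 was 1.12 lower in yNSCs than in NSCs. Fat1 was higher than in neurons by 1.37 in yNSCs and by 2.15 in NSCs. Celsr3, a neuronal planar polarity cadherin, was lower by 3.20 and by 3.17, and the synaptic calsyntenins Clstn1, Clstn2 and Clstn3 were lower by 1.46 to 2.33 in yNSCs and by 1.60 to 2.82 in NSCs.

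Against neurons, 8 of 10 cadherin-shedding proteases and secretase subunits were higher in yNSCs and 1 lower, and 6 were higher in NSCs and 2 lower (medians 0.69 and 0.43). Adam10, which sheds N-cadherin, was higher by 1.47 in yNSCs and by 1.79 in NSCs (limma adjusted p = 7.91e-07 and 1.2e-07). Mmp3 averaged 8.44 in yNSCs, 3.79 in NSCs and 3.47 in neurons, 4.97 above neurons and 4.65 above NSCs (limma adjusted p = 8.34e-11 and 1.09e-09). Of 9 transcription factors known to repress E-cadherin, yNSCs had 2 higher and 2 lower than neurons, and NSCs 3 higher and 1 lower. Zeb1 was higher by 1.66 and by 2.45 and Tcf3 by 1.64 and by 2.47, and both were lower in yNSCs than in NSCs (by 0.79 and 0.83), while Snai1 and the Twist genes passed in no comparison.

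Of 13 regulators of the protocadherin clusters, yNSCs had 8 higher and 1 lower than neurons, NSCs had 11 higher and 0 lower than neurons, and yNSCs had 0 higher and 6 lower than NSCs (medians 0.46, 0.74 and -0.35). All genes gave 34.6% higher and 27.9% lower, 33.3% and 34.1%, and 21.3% and 18% in these comparisons. The same shares apply to the partner and nectin counts below. Rest was higher than in neurons by 2.27 in yNSCs and by 2.62 in NSCs (limma adjusted p = 2.39e-08 and 6.11e-09). Ctcf, which with cohesin loops enhancers to the promoters of the clusters, was higher by 0.54 and by 1.24, and the cohesin subunit Rad21 by 0.68 and by 1.74. Smchd1, a silencer of the clusters, was higher by 1.32 and by 1.48. Of 13 intracellular partners of protocadherins, yNSCs had 1 higher and 7 lower than neurons, NSCs 5 higher and 6 lower, and yNSCs 2 higher and 7 lower than NSCs (medians -0.48, -0.13 and -0.72). In the WAVE complex, Wasf1 and Cyfip2 were lower by 2.87 and 3.62 in yNSCs and by 1.68 and 2.49 in NSCs, and Wasf2 was higher by 2.89 and by 3.85. Marcks, an actin-binding substrate downstream of protocadherin signaling, was 1.06 lower in yNSCs and 0.74 higher in NSCs than in neurons. Of 8 nectin and Cadm adhesion genes, some of which share junctions with cadherins, yNSCs had 2 higher and 4 lower than neurons, and NSCs 2 higher and 5 lower (medians -0.41 and -0.47). Cadm3, a synaptic adhesion gene, was lower by 4.77 and by 5.22, and Pvr was higher by 3.19 and by 2.33.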

How the data were processed

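RNA from 9 samples was hybridized to Affymetrix mouse arrays, 1 array a sample. The deposited values are log2 expression summaries, 1 per probe set, which the authors computed with RMA from biotinylated cRNA of Trizol-extracted RNA. The RMA version is not given in the sources used here, nor which arrays were normalized together. They were used as deposited. Of 45101 probe sets, 64 controls were left out, and only the 34945 annotated to 1 symbol named a gene, by the platform annotation. The 56 members had 101 probe sets, with more than 1 for 27 genes, and the probe set of highest mean was used. All 56 matched RefSeq gene IDs.

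A linear model with 3 group means was fitted to all 9 arrays and 18193 genes with limma 3.58.1 in R 4.3.3 (6 residual and 5.59 prior degrees of freedom). A gene was called when its two-sided adjusted p (Benjamini-Hochberg over all genes) was under 0.05. Differences are on the log2 scale, each with limma's moderated standard error (SE). The script was tested on simulated data. The number of arrays limits the precision. The labels call the replicates biological, without saying whether they are separate cultures or animals, so p-values measure the spread between these samples.

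Genes named with values are called members of largest difference without overlap of the groups, members of highest mean and a set list, and called genes of the related lists. The members, classes, lists and this rule were chosen with earlier results of these data known. Alternatives were a replicate block, only the 6 arrays compared, no genes of low mean, quantile normalization again, median subtraction, the mean of a gene's probe sets, no _x_ or _s_ probe sets, a robust prior with a variance trend, at least 2-fold change and leaving out each array. The promoter table is RefSeq's on GRCm38.p6.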

Additional observations from a re-analysis of the deposited data

How the results depend on the processing

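A minimum of 2-fold left 5 higher and 14 lower in yNSCs against neurons, and 7 higher and 16 lower in NSCs against neurons. In yNSCs against NSCs it left 3 higher and 6 lower. Of all 18193 genes it left 3336 higher and 1993 lower, 3388 and 2288, and 1102 and 1086 in the same order. Leaving out the 40% of genes of lowest mean kept 25 of the 56 genes, of which 12 were lower in yNSCs and 13 in NSCs than in neurons. Of the 10916 genes kept in all, 2901 and 3093 were lower. With each array left out in turn, 9 genes were higher and 20 to 24 lower in yNSCs than in neurons, 10 to 12 higher and 25 to 29 lower in NSCs than in neurons, and 10 to 13 higher and 11 to 15 lower in yNSCs than in NSCs. Over all 18193 genes, 5880 to 6489 were then higher and 4356 to 5236 lower in yNSCs than in neurons. For NSCs against neurons these were 5795 to 6139 and 5677 to 6081, and for yNSCs against NSCs 3248 to 4008 and 2791 to 3330.

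Under the replicate letter as a block the counts were 9 higher and 22 lower, 10 higher and 29 lower, and 13 higher and 12 lower in the same 3 comparisons. Over all 18193 genes they were 6228 higher and 4987 lower, 6004 and 6088, and 3728 and 3191. Same-letter arrays did not deviate together (correlations -0.11 to 0.10, 0 of 9 above 0.1), so the letters give no sign of pairing. The block ended the calls of Pcdhb21 in yNSCs against neurons (adjusted p = 0.0568) and of Pcdhb20 in yNSCs against NSCs (adjusted p = 0.0535).

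In yNSCs against NSCs, 3 differences changed sign with a call before or after the change, and others that passed in neither fit also changed sign. Pcdhb14 became 0.47 without _x_ and _s_ probe sets (adjusted p = 0.0221), and as the mean of all probe sets Pcdh7 became 0.31 (adjusted p = 0.0215) and Pcdh15 -0.089 (adjusted p = 0.46). Among single genes, leaving out 1 array ended a call 49 times and made one 16 times of 1512. Quantile normalization again made 12 calls and ended 13. It made those of Cdh2 (-0.29) and Cdh11 (-0.65) in yNSCs against neurons, and ended those of Cdh16, Pcdh12 and Pcdhb10 in NSCs against neurons, beside those of Pcdh7 and of genes that also lost a call without 1 array. Against near-background levels the arrays limit what can be seen, and 3, 4 and 1 of the calls in the 3 comparisons are of genes near background in both groups.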

Other observations

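Probe sets annotated to several alpha cluster genes entered no gene comparison. There were 6 of them, 3 that list 14 genes and 3 that list 9. Their values belong to the genes together, and no single gene is named from them. One that lists 14 genes had 7.19, 7.10 and 6.93 in yNSCs, 6.49, 6.78 and 7.0 in NSCs, and 10.92, 10.84 and 10.84 in neurons. It was lower than in neurons by 3.79 in yNSCs and by 4.11 in NSCs (limma adjusted p = 5.36e-10 and 2.71e-10), with 0.32 between yNSCs and NSCs (adjusted p = 0.0904). Another had 6.36, 6.36 and 6.24 in yNSCs, 4.11, 5.44 and 5.22 in NSCs, and 9.62, 9.75 and 9.54 in neurons, and it was the 1 of the 6 that differed between yNSCs and NSCs (1.40, adjusted p = 0.00129). In all, 5 of the 6 were lower in yNSCs and 5 in NSCs than in neurons. The 3 that list 14 genes were lower by 3.06 to 3.79 in yNSCs and by 3.37 to 4.71 in NSCs.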
